A study of Mus musculus with 14 samples.

Results

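The genes described here encode the factors that destroy messenger RNA other than the CCR4-NOT deadenylase complex itself. The list held 45 mouse genes, grouped by function, and 42 of them were measured among the 19938 genes tested. Upf3a, Upf3b and Pabpc4 had no probe set assigned to their symbol alone and are not described further. The 42 genes fell into 8 sub-machines by role. These were 3 tail-trimming enzymes outside CCR4-NOT, 7 decapping factors, 7 subunits of the Lsm ring, 2 5'-3' exonucleases, 11 subunits of the exosome, 5 factors of nonsense-mediated decay, 1 cytoplasmic poly(A)-binding protein and 6 factors of microRNA silencing.

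Most messenger RNAs die from the tail inward. Pan2-Pan3 and then CCR4-NOT, whose catalytic subunits include Cnot7, shorten the poly(A) tail. The Lsm ring and Patl1 then bind the shortened end and recruit the decapping enzyme, and Xrn1 degrades the uncapped message from its 5' end, while the exosome degrades from the 3' end. Argonaute proteins loaded with a microRNA bring CCR4-NOT and Pan2-Pan3 to a target through the Tnrc6 proteins, and nonsense-mediated decay feeds transcripts with premature stop codons into the same enzymes.

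The samples were cultures of 4T1, a mouse mammary tumor cell line, hybridized to Affymetrix Mouse Gene 1.0 ST arrays. Over-expression cultures carried a lentiviral human FLAG-CNOT7 cDNA (CNOT7_OE, n = 3) and were compared with the vector control (n = 3), both selected with blasticidin. Knockdown cultures carried a lentiviral hairpin against Cnot7, sh74 (n = 2) or sh75 (n = 3), and were compared with a scrambled hairpin, shScramble (n = 3), all selected with puromycin. The labels do not say whether replicates were separate transductions, so errors and p-values measure the spread between these cultures, and the precision is limited by the number of arrays. Within CNOT7_OE and within sh75, replicates 2 and 3 share a number in their titles and may not be independent. With such cultures averaged and counted as 1, limma called 0 members in every comparison.

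The mature guide strands of both hairpins are shown because the largest differences among the decay factors lay between the hairpins. They are taken from the study's list of hairpins and written 5' to 3', with the seed (bases 2 to 8) in capitals, and have different seeds. Whether the strands or their seeds have any part in the differences between the hairpins was not tested.
sh74: tAAGTACTgcagaatagaagg
sh75: aACAAGTCtacattacaccgc

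Cnot7, the targeted gene, was checked first. Its log2 value was 10.32 ± 0.12 in shScramble, 9.02 ± 0.44 in sh74 and 8.03 ± 0.50 in sh75 (mean ± SD). It was 10.25 ± 0.24 with the vector and 10.25 ± 0.34 in CNOT7_OE, where mouse probes need not detect the human cDNA. The sh75 change of -2.29 (SE 0.26) passed the test (limma adjusted p = 0.00911), and the sh74 change of -1.31 (SE 0.29) did not (adjusted p = 0.279). All 5 hairpin cultures lay below all 3 shScramble cultures (exact permutation test, two-sided, p = 0.0179, the smallest possible here). The cultures also differed in epithelial or mesenchymal state within groups. All 12 epithelial markers and 8 of 10 mesenchymal markers were above the dim limit (4.89 on the log2 scale, the 90th percentile of olfactory receptor probe sets), while Cdh2 and Snai2 were below it. The mesenchymal minus epithelial score, the difference of the centred marker means, was 1.77 and -1.54 in the sh74 replicates, -0.70, 1.32 and 0.96 in sh75, and -0.96, -1.66 and 0.996 in shScramble. It was -0.08, -0.99 and 0.25 with the vector and -0.91, 0.30 and 1.24 in CNOT7_OE. Above the dim limit were 2 of 5 measured immune markers (Cd3e and Cd68) and 2 of 4 endothelial markers. The same held for 3 of 4 adipocyte and 4 of 4 muscle markers, so passing this limit does not show that a cell type was present. Sample means of these lists ran from 4.77 to 6.12, against 8.68 to 10.81 for the epithelial list. In a bulk culture, fewer cells of one state and less RNA per cell cannot be told apart.

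All 42 decay factors were above the dim limit, and none of them changed beyond the adjusted threshold in any comparison. With CNOT7_OE against the vector, 0 of 42 members passed limma at an adjusted p under 0.05 (0% of all probe sets tested) and 0 passed at an unadjusted p under 0.05 (2.58% of all). For sh74 against shScramble, 0 members passed after adjustment (0.00918% of all) and 6 at an unadjusted p under 0.05 (7.33% of all). For sh75 against shScramble, 0 members passed after adjustment (0.0918% of all) and 3 at the unadjusted level (8.26% of all). The methods' t-test, run here per pair of groups with the same adjustment, also called 0 members in each of these comparisons. Over all probe sets, the alternative settings that include it called 0 with CNOT7_OE, 0 to 9 with sh74 and 0 to 35 with sh75. For its own list the paper gives a p threshold without naming an adjustment, so this result does not carry over to that list.

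The intervals limit how large a change, relative to the array, could have gone unseen. They hold for each member alone, not for all members jointly, and they take the cultures as independent. With CNOT7_OE, the 95% interval of all 42 members lay within 2-fold in either direction, and so did those of all 42 members with sh75. With sh74 the interval lay within 2-fold for 41 of 42, the exception being Xrn1. The members' changes ran from -0.20 to 0.33 on the log2 scale with CNOT7_OE, from -0.56 to 0.53 with sh74 and from -0.36 to 0.38 with sh75. Their median absolute change was 0.18 with sh74 and 0.15 with sh75, against 0.11 for all probe sets above the dim limit in each comparison. Members were also more variable within groups, with a median residual SD of 0.20 against 0.16 over the probe sets above the dim limit.

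**Figure D1:**
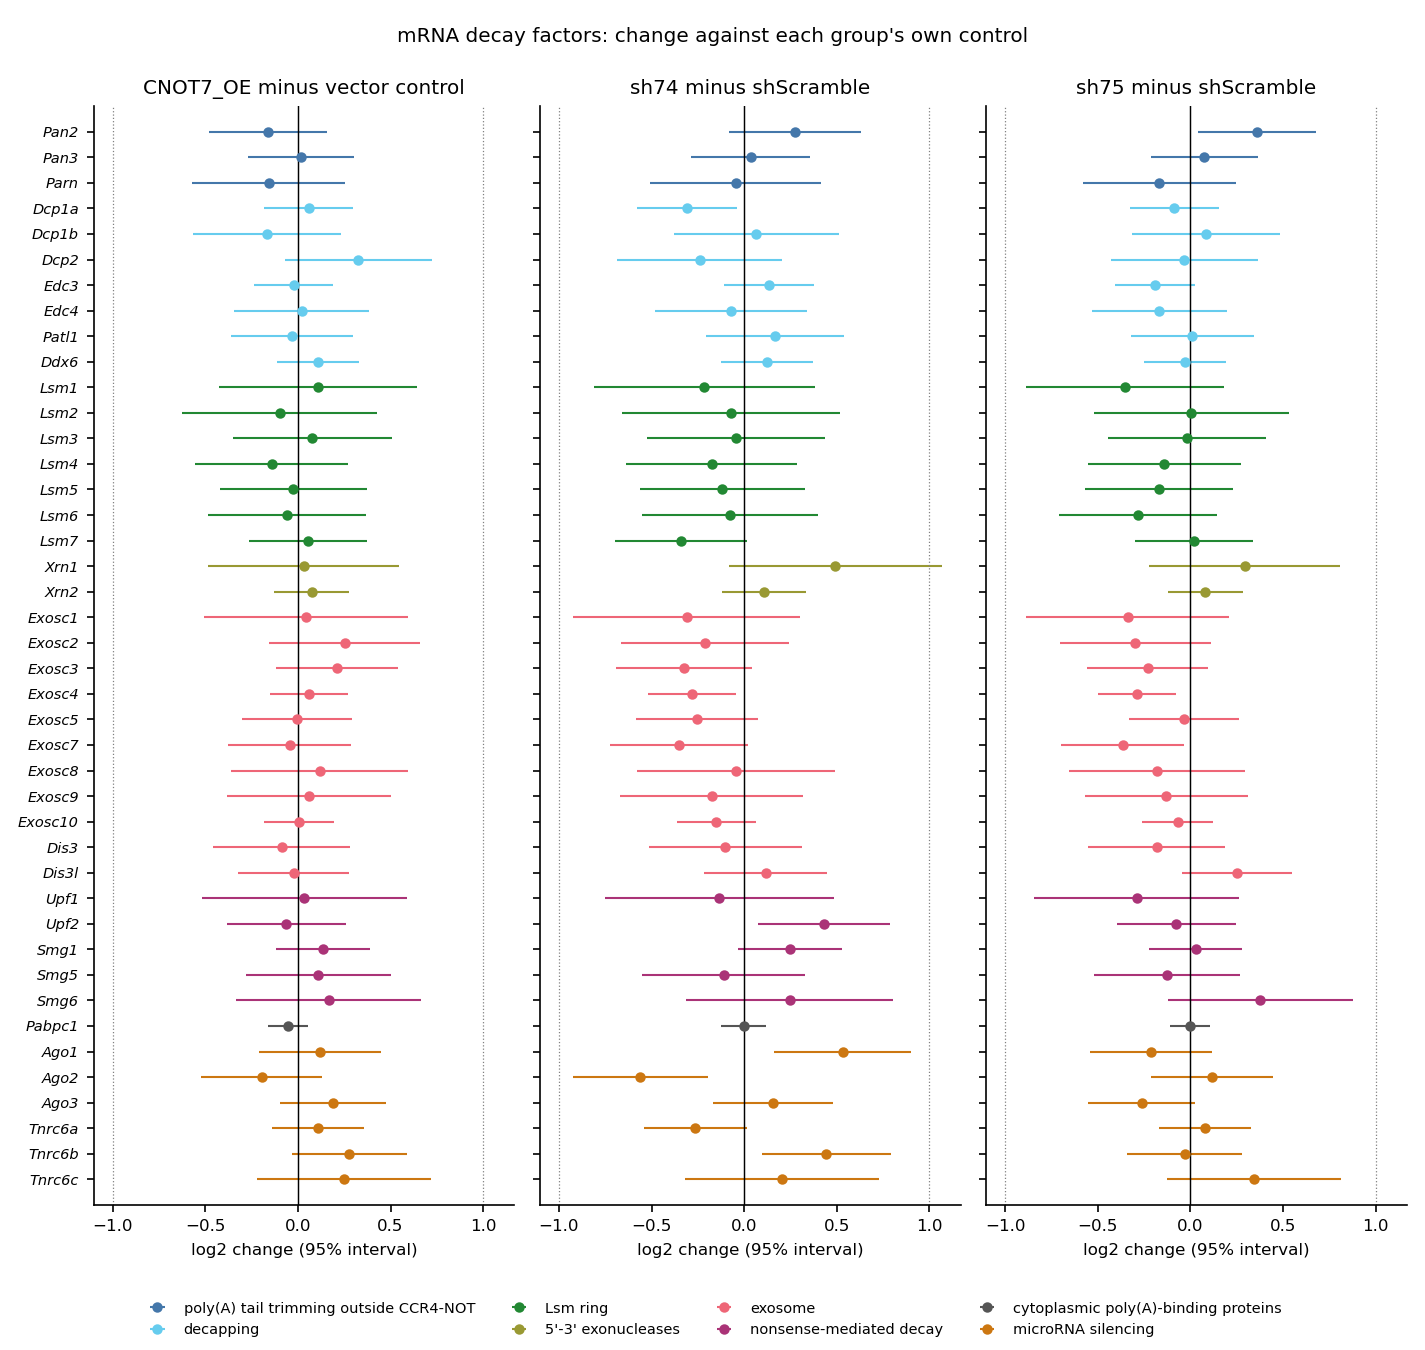
Log2 change of each of the 42 measured decay factors (points) with its 95% limma interval (bars) in CNOT7_OE against vector control, sh74 against shScramble and sh75 against shScramble, coloured by sub-machine; dotted lines mark a 2-fold change. Of the 11 exosome subunits, 10 sit left of 0 in each hairpin comparison, and Ago1 (0.53) and Ago2 (-0.56) sit farthest from 0 with sh74.

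The exosome subunits shared a direction with both hairpins. This multi-subunit 3'-5' exonuclease consists of a barrel of Exosc proteins to which the catalytic subunits Exosc10, Dis3 and Dis3l attach. Of its 11 measured subunits, 10 had a lower mean in sh74 than in shScramble, with a median log2 change of -0.21, and 10 of 11 had a lower mean in sh75, with a median of -0.18. Dis3l, a cytoplasmic catalytic subunit, was the exception in both, at 0.12 and 0.25. Over all probe sets tested, 51.3% were higher with sh74 and 49.8% were higher with sh75, with medians of 0.00 in both. Both hairpins were set against the same shScramble cultures, so these counts are not independent of each other. The subunits were read from the same few cultures, so they are not independent of one another either.

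By culture, the median exosome deviation from the mean of all 14 samples was -0.19 and 0.02 in sh74, -0.13, -0.22 and 0.06 in sh75, and 0.15, 0.05 and 0.07 in shScramble. All 3 shScramble cultures thus lay above 4 of the 5 hairpin cultures, and the third sh75 culture lay between them. The vector cultures, at 0.10, -0.11 and 0.16, and the CNOT7_OE cultures, at 0.21, 0.14 and 0.02, overlapped both. With CNOT7_OE, 7 of 11 subunits were higher than with the vector and the median change was 0.04. That direction was lost without the second vector culture, where 7 of 11 were lower and the median was -0.04, and under array weights, with a median of -0.01. Without the first sh74 culture, 8 of 11 subunits stayed lower with sh74 and the median change was -0.07, against -0.32 without the second sh74 culture. With the state score as a covariate, 10 of 11 were lower with sh74 and 9 of 11 with sh75. Leaving out any single culture kept 9 or 10 of 11 lower with sh75, with medians from -0.27 to -0.13.

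**Figure D2:**
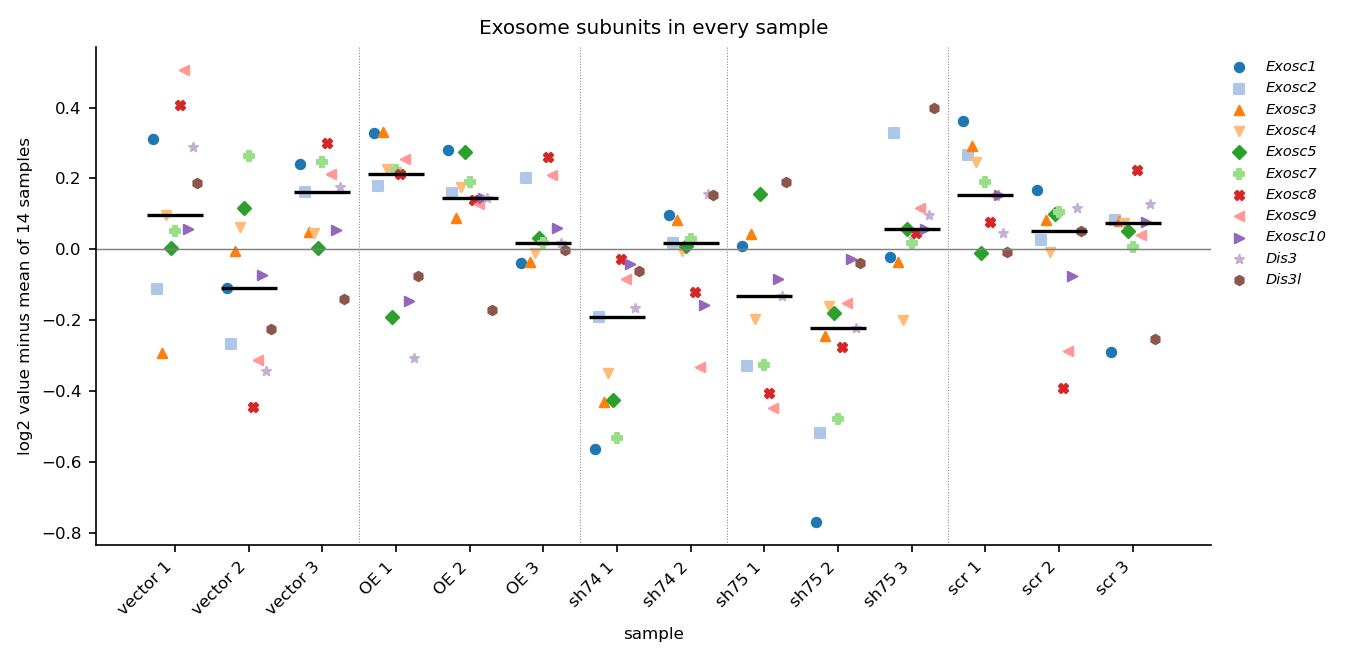
Log2 value of each of the 11 measured exosome subunits (symbols) in each of the 14 samples, minus the subunit's mean over all samples, with the sample median as a black bar and dotted lines between the 5 groups (scr is shScramble, OE is CNOT7_OE). The medians were 0.05 or more in every shScramble sample and 0.06 or less in every hairpin sample. These ranges overlapped, with the third sh75 sample (0.057) above the second shScramble sample (0.053).

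Exosc4, a ring subunit of the exosome barrel, carried the smallest p of the members with sh75. Its log2 values were 6.82, 6.86 and 6.82 in sh75 and 6.67 and 7.01 in sh74, against 7.26, 7.01 and 7.09 in shScramble. The sh75 cultures lay below every other culture except the first sh74 one. The vector cultures held 7.11, 7.08 and 7.06 and the CNOT7_OE cultures 7.24, 7.19 and 7.01. The change was -0.29 with sh75 (SE 0.10, adjusted p = 0.438) and -0.28 with sh74 (SE 0.11, adjusted p = 0.605). Exosc7, another ring subunit, stood at 7.94, 7.79 and 8.28 in sh75 and 7.73 and 8.29 in sh74, against 8.46, 8.37 and 8.27 in shScramble. Its changes were -0.36 (SE 0.15) and -0.35 (SE 0.17), and one culture of each hairpin group overlapped shScramble. Exosc1, a cap subunit, had the largest residual SD of the exosome subunits (0.34). It was 9.49 in the second sh75 culture and 9.70 in the first sh74 culture, but 10.27 and 10.24 in the other sh75 cultures and 9.97 in the third shScramble culture. Exosc3, also a cap subunit, was represented by 1 of its 2 probe sets, and the dimmer one differed in direction with sh75 (0.14 against -0.23) and with CNOT7_OE (-0.11 against 0.21). Exosc2, the remaining cap subunit, gave -0.21 with sh74, -0.30 with sh75 and 0.25 with CNOT7_OE, while the ring subunits Exosc5, Exosc8 and Exosc9 ran from -0.25 to 0.12 over the 3 comparisons. Of the catalytic subunits, Exosc10 ranged by only 0.31 over all 14 cultures, and Dis3 gave -0.10 with sh74 and -0.18 with sh75.

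With both hairpins averaged against shScramble, 0 members passed after adjustment (0.0184% of all probe sets) and 3 at an unadjusted p under 0.05 (7.3% of all). Those 3 were Exosc4 at -0.29 (SE 0.09, adjusted p = 0.547), Exosc7 at -0.36 (SE 0.14, adjusted p = 0.608) and Pan2 at 0.32 (SE 0.13, adjusted p = 0.645). The test for opposite movement with less and more of the deadenylase, the hairpin change minus the over-expression change, called 0 members (0% of all) and gave 3 at the unadjusted level (3.49% of all). Its largest differences were -0.51 for Exosc2 and -0.49 for Exosc3, both barrel subunits, and 0.48 for Pan2, all at an adjusted p of 1.0. The dimmer Exosc3 probe set did not show this movement, at -0.11 with CNOT7_OE, -0.05 with sh74 and 0.14 with sh75.

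Both exonucleases at the 5' end had higher means with each hairpin. Xrn1, the cytoplasmic enzyme, was measured at 9.14 and 8.41 in sh74, 8.42, 8.80 and 8.52 in sh75, and 7.89, 8.22 and 8.75 in shScramble. Its change was 0.49 with sh74 (SE 0.26) and 0.29 with sh75 (SE 0.23), and the groups overlapped in both. The culture with the highest Xrn1 value, the first of sh74, also had the highest state score. With the number in the sample titles as a replicate block, the sh75 change of Xrn1 was 0.04. Xrn2, the nuclear enzyme, was measured at 10.70 and 10.68 in sh74 and at 10.66, 10.65 and 10.69 in sh75, just above 10.61, 10.59 and 10.55 in shScramble. These groups did not overlap, but the changes were small, 0.11 (SE 0.10) and 0.08 (SE 0.09). The vector cultures ranged more widely, at 10.14, 10.57 and 10.42.

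Pan2, the catalytic subunit of the first tail-trimming enzyme, was higher in all 3 sh75 cultures than in any shScramble culture. It was measured at 8.84, 8.78 and 8.54 in sh75, 8.48 and 8.78 in sh74, and 8.20, 8.50 and 8.38 in shScramble. The change was 0.36 with sh75 (SE 0.15, adjusted p = 0.546) and 0.27 with sh74 (SE 0.16, adjusted p = 0.79). With CNOT7_OE it was -0.16 (SE 0.15), from cultures at 8.44, 8.08 and 8.28 against 8.19, 8.67 and 8.43 with the vector, which overlapped. Pan3, its adaptor, gave 0.02, 0.04 and 0.08 in the comparisons of CNOT7_OE, sh74 and sh75, and Parn, a separate deadenylase, gave -0.16, -0.05 and -0.17.

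Among the decapping factors, the median change was 0.02 with CNOT7_OE, 0.07 with sh74 and -0.03 with sh75. Dcp2, the decapping enzyme, showed the largest change of any member with CNOT7_OE. Its values were 7.61, 8.24 and 7.97 against 7.60, 7.50 and 7.74 with the vector, a change of 0.33 (SE 0.18, adjusted p = 1.0), and the groups overlapped. Without one culture at a time that change ran from 0.18 to 0.49. Dcp1a, its activating partner, stood at 8.41 and 8.37 in sh74, below all 3 shScramble cultures (8.66, 8.74 and 8.70) and all 3 sh75 cultures (8.62, 8.56 and 8.65). The sh74 change was -0.31 (SE 0.12, adjusted p = 0.639). Edc3, an enhancer of decapping, had its lowest group mean in sh75. Its values there were 8.59, 8.85 and 8.99, against 9.11 and 9.17 in sh74 and 8.90, 9.03 and 9.08 in shScramble, which sh75 overlapped. Ddx6, the helicase that couples the silencing and decapping machines, stood at 11.29, 10.99 and 11.34 with the vector and 11.61, 11.46 and 11.38 in shScramble, so a difference of -0.28 (SE 0.10) lay between the control groups. The remaining decapping factors, Dcp1b, Edc4 and Patl1, stayed between -0.17 and 0.17 in all 3 comparisons.

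The Lsm ring, which binds the shortened tail, had lower means in sh74 for all 7 subunits (median change -0.12) and in sh75 for 5 of 7 (median change -0.14). That direction rested on single cultures. By culture, the ring's median deviation was -0.39 in the first sh74 culture and -0.39 in the second sh75 culture, the 2 cultures with the highest state scores, while it was 0.14 in the other sh74 culture and 0.09 and 0.03 in the other sh75 cultures. Without the first sh74 culture 6 of 7 subunits were higher with sh74 (median 0.09), and without the second sh75 culture 4 of 7 were higher with sh75 (median 0.01). With the state score as a covariate, the medians were -0.03 and 0.01. Lsm6 showed the widest gap of any member between the sh74 cultures, at 9.31 and 10.11. Lsm7 was measured at 8.77 and 9.41 in sh74, and only the first of these cultures was below 9.32. The further probe sets of Lsm5, Lsm6 and Lsm7 had the same sign with each hairpin as those reported. Lsm1, the subunit found only in the cytoplasmic ring, had the largest change with sh75, at -0.35 (SE 0.24).

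**Figure D3:**
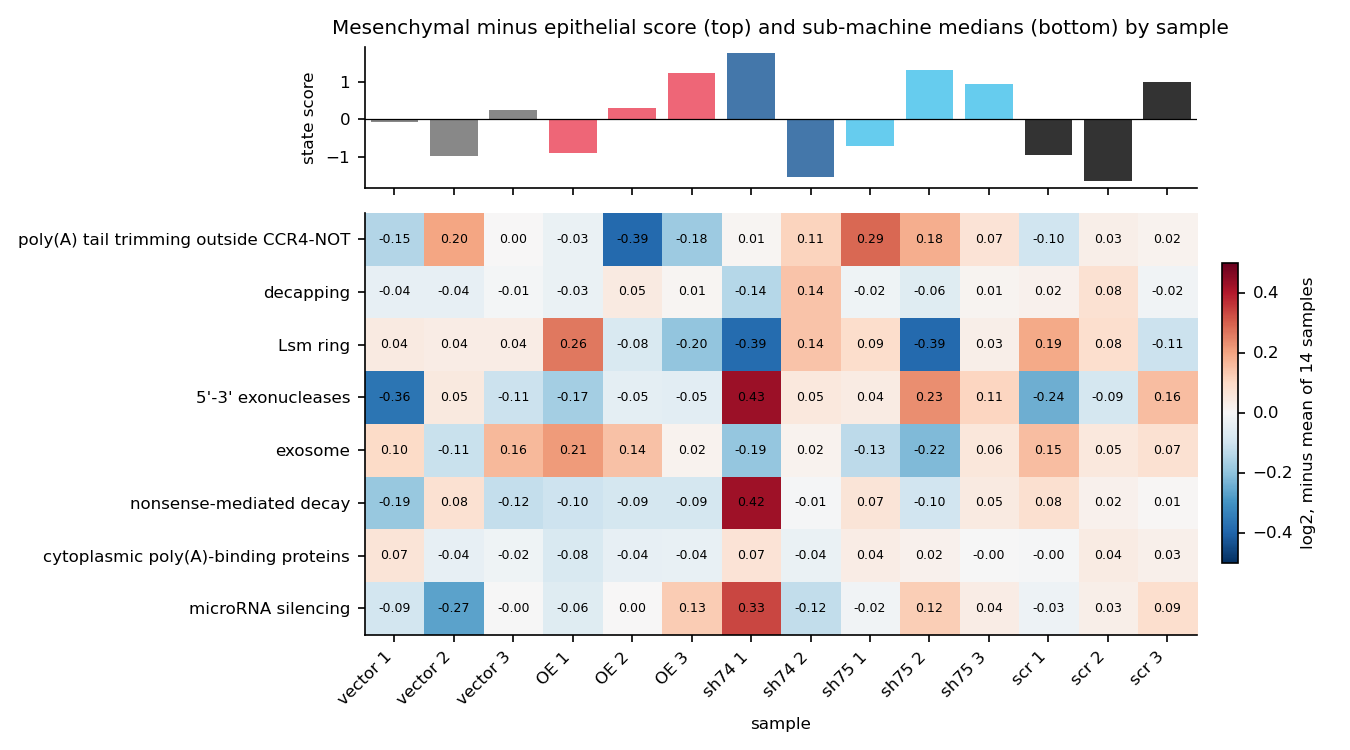
Mesenchymal minus epithelial score of each of the 14 samples (bars, top, log2 units) and the median deviation of each sub-machine's members from their mean over all samples (colour and printed value, bottom, log2). The first sh74 sample, with the highest score (1.77), has the lowest value of the Lsm ring (-0.39, shared with the second sh75 sample) and the highest of nonsense-mediated decay (0.42) and microRNA silencing (0.33).

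Between the sh74 replicates, 15 of 42 members differed by more than 0.5 on the log2 scale, from -0.80 for Lsm6 to 0.73 for Xrn1 (first minus second). All 7 Lsm subunits and 8 of 11 exosome subunits were lower in the first culture. The part of the difference in state score in these gaps was not tested.

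Nonsense-mediated decay factors did not share a direction. Upf2, the bridge between Upf1 and the exon junction complex, was measured at 9.12 and 8.88 in sh74, above 8.35, 8.80 and 8.56 in shScramble and 8.51, 8.46 and 8.51 in sh75. Its sh74 change was 0.43 (SE 0.16, adjusted p = 0.602). Upf1, the central helicase, gave -0.13 with sh74 and -0.29 with sh75, and its shScramble values of 9.71, 9.57 and 8.99 spanned most of its range. Smg5, an adaptor that binds phosphorylated Upf1, gave -0.11 and -0.13. Smg1, the kinase that phosphorylates Upf1, stood at 9.56 and 9.01 in sh74 against 9.10, 9.04 and 8.99 in shScramble. Its change of 0.25 (SE 0.13) was 0.52 (SE 0.09, adjusted p = 0.0433) when the second sh74 culture was left out, the only call of a member in any alternative against a control, and it then rested on 1 culture assumed to vary like the other groups. Smg6, the endonuclease of the pathway, had the largest difference of these factors with sh75, 0.38 (SE 0.23, adjusted p = 0.713), from 8.60, 9.01 and 8.51 against 8.02, 8.31 and 8.65. In CNOT7_OE, Smg1 values of 8.91, 9.03 and 8.93 lay above the vector values of 8.84, 8.77 and 8.86, a change of 0.14 (SE 0.11).

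The microRNA silencing factors gave the largest differences between the hairpins. In sh74 against sh75, which tests the difference itself, 0 members passed after adjustment (0.174% of all probe sets) and 8 passed at an unadjusted p under 0.05 (8.93% of all). These were Ago1, Ago2, Ago3, Tnrc6a, Tnrc6b, Upf2, Edc3 and Lsm7, so 5 of the 6 silencing factors were among them. No sh74 culture shares a title number with an sh75 or shScramble culture. Whatever that number marks therefore cannot be told apart from an effect of sh74. Leaving out single cultures kept the sign of all 8, but the size of some differences depended on 1 culture. The difference then ran from -0.56 to -0.125 for Tnrc6a, from 0.20 to 0.75 for Tnrc6b and from -0.68 to -0.04 for Lsm7. Ago1, an Argonaute without strong slicing activity, was measured at 9.20 and 9.02 in sh74 and 8.43, 8.51 and 8.16 in sh75, with shScramble at 8.55, 8.42 and 8.77. Every other culture of the series was below both sh74 cultures. The difference between the hairpins was 0.75 (SE 0.17, 95% interval 0.38 to 1.11, adjusted p = 0.143), and the sh74 change against shScramble was 0.53 (SE 0.17, adjusted p = 0.495).

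Ago2, the Argonaute that cleaves its targets, ran the other way. It was measured at 10.34 and 10.42 in sh74, 11.08, 11.01 and 11.09 in sh75, and 10.95, 10.89 and 10.99 in shScramble, so sh74 did not overlap either. One CNOT7_OE culture (10.32, beside 10.70 and 11.03) was as low as sh74, and the vector cultures held 11.09, 10.72 and 10.82. The difference between the hairpins was -0.68 (SE 0.17, 95% interval -1.04 to -0.31, adjusted p = 0.193), and the sh74 change was -0.56 (SE 0.17, adjusted p = 0.477). A second Ago2 probe set gave -0.44 with sh74 and 0.31 with sh75. The state scores of the sh74 cultures were 1.77 and -1.54, and with the score as a covariate the hairpin difference was 0.78 for Ago1 (adjusted p = 0.078) and -0.68 for Ago2 (adjusted p = 0.149). Over the 23 alternative fits, the hairpin difference stayed between 0.64 and 0.84 for Ago1 and between -0.71 and -0.64 for Ago2, with adjusted p from 0.078 to 0.995 and from 0.0689 to 0.995. Fits that changed only the error, or left out a culture of another group, could not move these differences.

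Ago3, a further Argonaute, was measured at 7.91 and 7.62 in sh74, 7.26, 7.32 and 7.45 in sh75, and 7.57, 7.64 and 7.62 in shScramble. Its sh75 cultures lay below all shScramble cultures, with a change of -0.26 (SE 0.13, adjusted p = 0.645). Of the Tnrc6 scaffolds, Tnrc6b stood at 9.29 and 8.75 in sh74 against 8.53, 8.58 and 8.62 in shScramble, a change of 0.44 (SE 0.16, adjusted p = 0.569) that was 0.17 without the first sh74 culture. The CNOT7_OE cultures held 8.60, 8.63 and 8.60 for Tnrc6b, above 8.28, 8.35 and 8.37 with the vector, a change of 0.28 (SE 0.14, adjusted p = 1.0) and the smallest p of the members in that comparison. Those CNOT7_OE values were close to shScramble, and the vector cultures were the low ones. Tnrc6a was 9.01 and 8.58 in sh74 and 9.21, 9.13 and 9.08 in sh75. Tnrc6c, at 8.52 and 7.91 in sh74 and 7.90, 8.69 and 8.47 in sh75, overlapped shScramble (7.88, 7.99 and 8.16) in both.

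**Figure D4:**
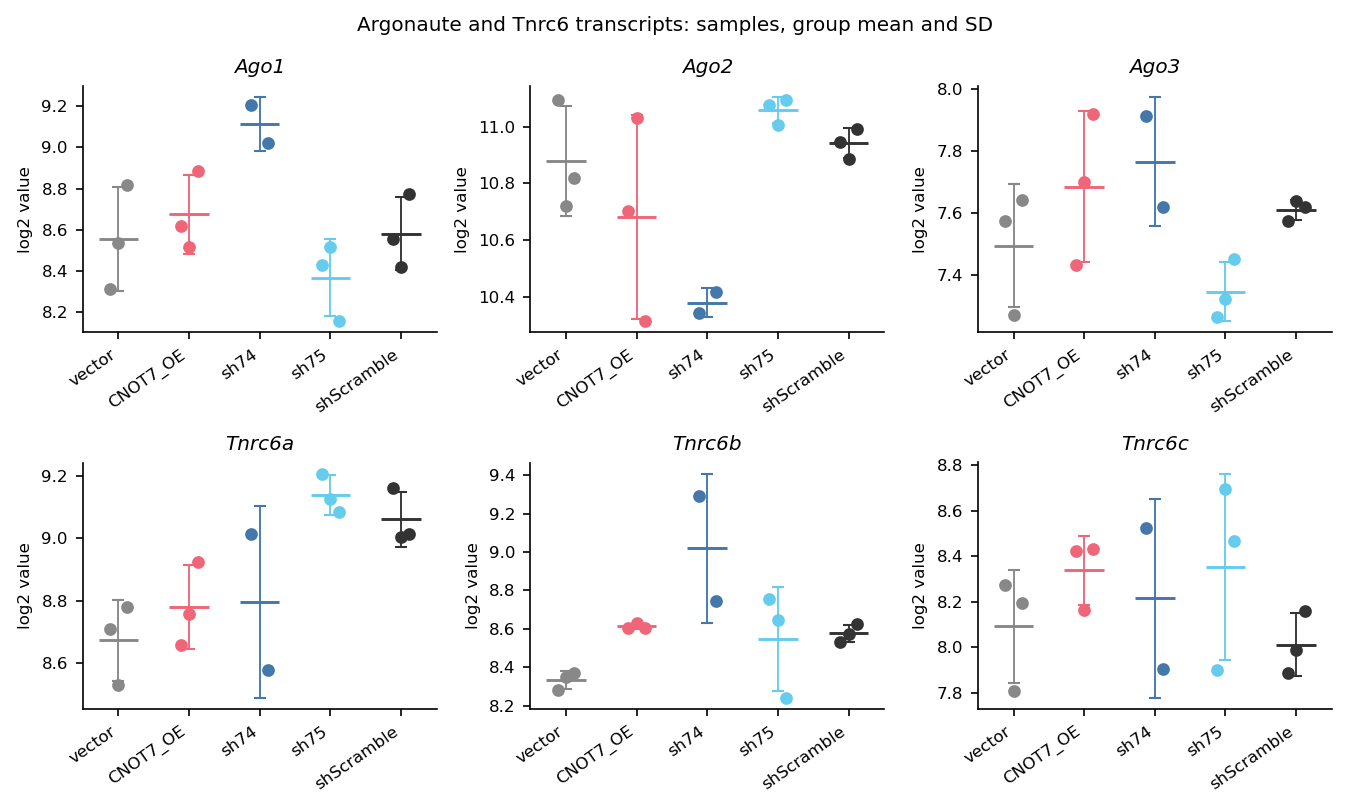
Log2 values of the 3 Argonaute and 3 Tnrc6 transcripts in each sample (points) by group, with the group mean (line) and SD (error bar); each panel has its own axis, and no level is compared between panels. Ago1 is highest in both sh74 samples (9.20 and 9.02), and Ago2 in sh74 (10.34 and 10.42) lies below all sh75 and shScramble samples.

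Pabpc1, the main cytoplasmic poly(A)-binding protein, was the steadiest member. Its 14 values spanned 0.15 on the log2 scale, with a residual SD of 0.04, and its change was -0.05 with CNOT7_OE and 0.00 with each hairpin. Only 4 of the probe sets tested had a higher mean than its 13.25, near the top of the array's scale (13.61), where the room for an increase was small.

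Non-overlap of groups was counted as a second reading. With CNOT7_OE, 2 members did not overlap the vector, Smg1 and Tnrc6b, both higher (7.72% of all probe sets did not overlap in either direction). With sh74, 5 members were above shScramble (Edc3, Xrn2, Upf2, Ago1 and Tnrc6b) and 3 below (Dcp1a, Exosc2 and Ago2), where 22% of all probe sets did not overlap. With sh75, 3 were above (Pan2, Xrn2 and Ago2) and 5 below (Dcp1a, Lsm6, Exosc3, Exosc4 and Ago3), where 13.5% of all did not overlap. Groups of 2 cultures separate more often than groups of 3, so the counts of the hairpins are not comparable.

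The control groups differ in vector and drug selection. Between them 0 members passed after adjustment (0% of all probe sets) and 3 at an unadjusted p under 0.05 (3.7% of all), all lower with the vector. Tnrc6a had the smallest p, at 8.71, 8.53 and 8.78 with the vector and 9.16, 9.01 and 9.02 in shScramble, a difference of -0.39 (SE 0.11, adjusted p = 1.0) without overlap. The others were Ddx6 at -0.28 and Xrn2 at -0.21. Over all 5 groups at once, limma's F test called 0 members (0.0597% of all) and gave 11 at an unadjusted p under 0.05 (9.24% of all). Tnrc6a (adjusted p = 0.297), Ago1 (0.36), Ago2 (0.372), Tnrc6b (0.389) and Exosc4 (0.39) had the smallest values.

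Partners of these machines were read from a list of 55 symbols, older names included, of which 47 were measured, and 0 passed after adjustment in any comparison. At an unadjusted p under 0.05 there were 2 of 47 with CNOT7_OE (2.58% of all probe sets), 4 with sh74 (7.33% of all), 8 with sh75 (8.26% of all), 7 in sh74 against sh75 (8.93% of all) and 5 between the control groups (3.7% of all). In sh74 against sh75 these included 2 of 9 microRNA pathway partners and 2 of 8 poly(A)-binding partners. Dicer1, which cuts microRNA precursors, was 0.57 higher in sh74 than in sh75 (SE 0.12, adjusted p = 0.128), and Tarbp2, its RNA-binding partner, differed by -0.53 (SE 0.13, adjusted p = 0.207). Against shScramble, sh74 gave 0.54 for Dicer1 and -0.38 for Tarbp2, and sh75 gave -0.03 and 0.14. Ago4, the remaining Argonaute, gave 0.11 with sh74 and 0.19 with sh75. Among partners of the other machines, Lsm14a, a decapping scaffold, gave -0.30 with sh74 (SE 0.09, adjusted p = 0.482), and Gspt1, the release factor that contacts Upf1, by -0.26 with sh75 (SE 0.09, adjusted p = 0.476).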

How the data were processed

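The authors hybridized total RNA of 14 4T1 cultures in 5 groups to Affymetrix Mouse Gene 1.0 ST arrays and deposited log2 values per probe set, made with RMA (background correction, quantile normalization and summary) in the R package oligo, per the labels; versions and genome build are not given in the sources used here. Quantile normalization makes array totals alike, so changes are relative to the array (array medians 6.31 to 6.38). Of 35556 probe sets, 21789 carried 1 gene symbol and were tested, 1621 carried several and 12146 none. Each gene was represented by its probe set with the highest mean. The members and lists were chosen with earlier results of these data known. Groups came from the labels. One limma 3.58.1 fit (R 4.3.3) of all 14 samples gave 7 contrasts and an F test, two-sided, with Benjamini-Hochberg adjustment over all tested probe sets and a threshold of 0.05. The script was tested on simulated data. Members were named in full if they had the largest change or smallest p of a sub-machine, or were among the 8 smallest p of a comparison. The methods' t-test (Welch) and other settings were alternatives. No 2 samples were duplicates (highest correlation 0.99). Figures were drawn with matplotlib.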

Additional observations from a re-analysis of the deposited data

How the results depend on the processing

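Of 1071 recomputed changes of named members, 1064 kept their direction and their side of the threshold and 7 changed sign. Many of them could not have changed sign, since leaving out a culture outside a comparison leaves its log2 change as it was. The same holds for settings that alter only the error, such as the methods' t-test. The change of Smg1 with sh74 was not among the 1071. The sign changes were all of values near 0. Leaving out single cultures gave -0.0435 to 0.169 for Xrn2 with CNOT7_OE, -0.0556 to 0.0486 for Pabpc1 with sh74 and -0.015 to 0.0086 for Pabpc1 with sh75, which was 0.002 with same-number samples averaged. The count of called members stayed at 0 except without the second sh74 culture, where Smg1 passed (0 to 1 for sh74 and for the F test). The members' median change moved beyond the spread between samples in some fits. With the state score as a covariate it was -0.0063 for sh74 and -0.0319 for the mean of the hairpins. Leaving out single cultures gave -0.1037 to 0.0191 for sh74, -0.1194 to -0.0275 for the mean of the hairpins and -0.0817 to 0.1237 for sh74 against sh75. The cause was not tested.

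The count over all probe sets depended more on the setting than the members' did. For sh74 it was 2, with 0 to 9 under other settings and 1 to 122 leaving out cultures. For sh75 it was 20, with 0 to 35 and 6 to 36. For the mean of the hairpins it was 4, with 0 to 4 and 0 to 89. For sh74 against sh75 it was 38, with 0 to 69 and 12 to 55. For the F test it was 13, with 9 to 35 and 12 to 129. For CNOT7_OE and for the control groups it was 0, with at most 1.

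The labels do not say what the number in a sample's title marks. Same-numbered sh75 and shScramble samples had correlations of their deviations of 0.41, 0.59 and -0.03. Pairs with different numbers ran from -0.48 to 0.19. What the number marks was not tested, and the main fit did not use it to pair samples. With the title number as a replicate block, sh75 against shScramble gave 0 called members, a median member change of -0.0562 and 2 probe sets called in place of 20. No paired analysis was possible for the other comparisons because their groups were not connected through shared numbers.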
